A study of Mus musculus with 12 samples.

Results

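The comparison was between sinusoidal endothelial cells (SECs) isolated from fibrotic and from control mouse liver. Its members were the 6 SEC libraries of a bulk RNA sequencing series of 12, namely 3 F-SEC libraries from mice given carbon tetrachloride (CCl4) and 3 Q-SEC libraries from mice given oil. All rows of the count table that named a gene and not a cDNA clone were used, 23472 of 56825 entries, of which 14489 were expressed highly enough to be tested. The mice of both groups were male C57BL/6, aged 12 to 14 weeks when cells were taken. F-SEC mice had received CCl4, a liver poison that leaves scar tissue when given for weeks, into the peritoneum at 0.6 µl per g body weight, 15% in olive oil, 2 times a week for 6 weeks from an age of 6 to 8 weeks, and Q-SEC mice olive oil. Cells were freed with collagenase, separated on a density gradient and purified with magnetic beads that bind LSECs, so each library is a bulk fraction that can hold other cells. The other 6 libraries, 3 F-HSC and 3 Q-HSC, are hepatic stellate cell fractions of the same treatments, which share in the estimate of error and serve where the fractions are compared. Whether each library came from its own mouse is not stated in the labels, so the p-values reflect differences among libraries that could be technical.

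SECs line the hepatic sinusoid. They are perforated by open fenestrae, lack a continuous basement membrane and clear waste molecules from portal blood through scavenger receptors. In chronic injury they lose fenestrae and come to resemble continuous capillaries, while neighbouring stellate cells, the pericytes of the sinusoid, become matrix-producing myofibroblasts. Because the matrix genes and the endothelial markers of this model are its usual readouts, they serve here only as a check of the label, and the results concern the other programs of the fraction.

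Levels are given as CPM, read counts per 1000000 of the TMM-adjusted gene total of the library, in the order of libraries 1, 2 and 3 of each group. Changes are log2 fold changes ± SE of F-SEC over Q-SEC over 3 libraries a group, and adjusted p-values come from edgeR's quasi-likelihood test over all 14489 genes. A gene is said to rise or fall where its adjusted p was under 0.05. Gene counts summed to 9333699 to 10643626 in Q-SEC and to 9291420 to 11309878 in F-SEC, so that 3 counts, the floor used here, stood for 0.261 to 0.324 CPM, and such floors cover counting error only.

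In Q-SEC the label held in that the LSEC and pan-endothelial lists had the highest sums of the marker lists. Other cells' markers were present and moved with treatment. In F-SEC the matrix and myofibroblast sum exceeded the pan-endothelial sum in every library, and the LSEC sum in F-SEC.1 and F-SEC.3. The lists differ in size and in the level of their genes, so the sums do not give cell shares. The 23 LSEC-associated markers summed to 50442, 49949 and 43312 CPM in Q-SEC and 19600.0, 20529.7 and 14839.6 CPM in F-SEC, and 17 of them fell. The 17 pan-endothelial markers, which any blood vessel endothelium expresses, summed to 22036, 20289.8 and 17524 CPM in Q-SEC and 10059, 11849 and 8496 CPM in F-SEC, and 6 fell and 0 rose, with a median log2 change of -0.62. The 20 fibrillar matrix and myofibroblast markers summed to 5147, 1550.1 and 1586 CPM in Q-SEC and 30799.7, 19477 and 41864 CPM in F-SEC, and 18 rose. In bulk RNA, fewer cells of a type and less RNA per cell cannot be told apart. For LSEC marker genes, falls numbered 10 without F-SEC.3. For pan-endothelial genes, the falls came to 3 without Q-SEC.3, Q-SEC.2 or Q-SEC.1 and 2 without F-SEC.3.

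Q-SEC.1 stood apart from the other control libraries. The 18 stellate cell markers summed to 4425, 709 and 517 CPM in Q-SEC and 4859, 7472 and 8079 CPM in F-SEC, so that this library came close to the F-SEC libraries. Of these markers 8 rose, and 16 without Q-SEC.1, 13 with the block and 5 without Q-SEC.2, Q-SEC.3 or F-SEC.3. Kupffer cell markers summed to 1879.6, 1336 and 823 CPM in Q-SEC and 2194, 4521 and 2169 CPM in F-SEC, with F-SEC.2 the highest, and 6 of 15 rose and 1 fell. The rises were Cd5l, Emr1, Csf1r, C1qa, C1qb and C1qc and the fall was Clec1b. Clec4f, Vsig4, Timd4, Marco, Folr2, Slc40a1, Fcna and Cd163 were not called, with adjusted p-values from 0.053 (Cd163, lower in every F-SEC library) to 0.88 (Fcna). Kupffer cell marker rises were 1 without Q-SEC.3 and 3 without Q-SEC.2 or F-SEC.2, and Kupffer cell marker falls were 0 without Q-SEC.3, F-SEC.3, Q-SEC.2, F-SEC.2 or Q-SEC.1. Monocyte and scar-associated macrophage markers summed to 749, 1545 and 1353 CPM in Q-SEC and 2787, 3659.6 and 4347 CPM in F-SEC, and 8 of 14 rose. Of these sums Fn1 gave 175, 329 and 190 CPM in Q-SEC and 691, 1429 and 1822 CPM in F-SEC. The paper lists Fn1 with continuous endothelium and basement membrane genes. Spp1, also a cholangiocyte marker here, gave 135, 775 and 810 CPM in Q-SEC and 281, 345 and 544 CPM in F-SEC. Spp1, Itgam, Ly6c2, Ccr2, Cd9 and Fabp5 were not called, and the sum does not measure macrophages alone. Neutrophil markers summed to 68.9, 1273 and 578 CPM in Q-SEC and 221, 506 and 411 CPM in F-SEC, with the control libraries on both sides of the others, and 0 of 11 were called by edgeR, by DESeq2 or by limma-voom, nor was any at an unadjusted p under 0.05 (0 of 11). Without Q-SEC.1 1 of them fell. Hepatocyte markers summed to 1695, 5956 and 3979 CPM in Q-SEC and 3227, 2294 and 3542 CPM in F-SEC, and 1 of 18, Mup3, fell. The number of hepatocyte marker falls was 0 without F-SEC.3 and 3 without Q-SEC.1.

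**Figure D1:**
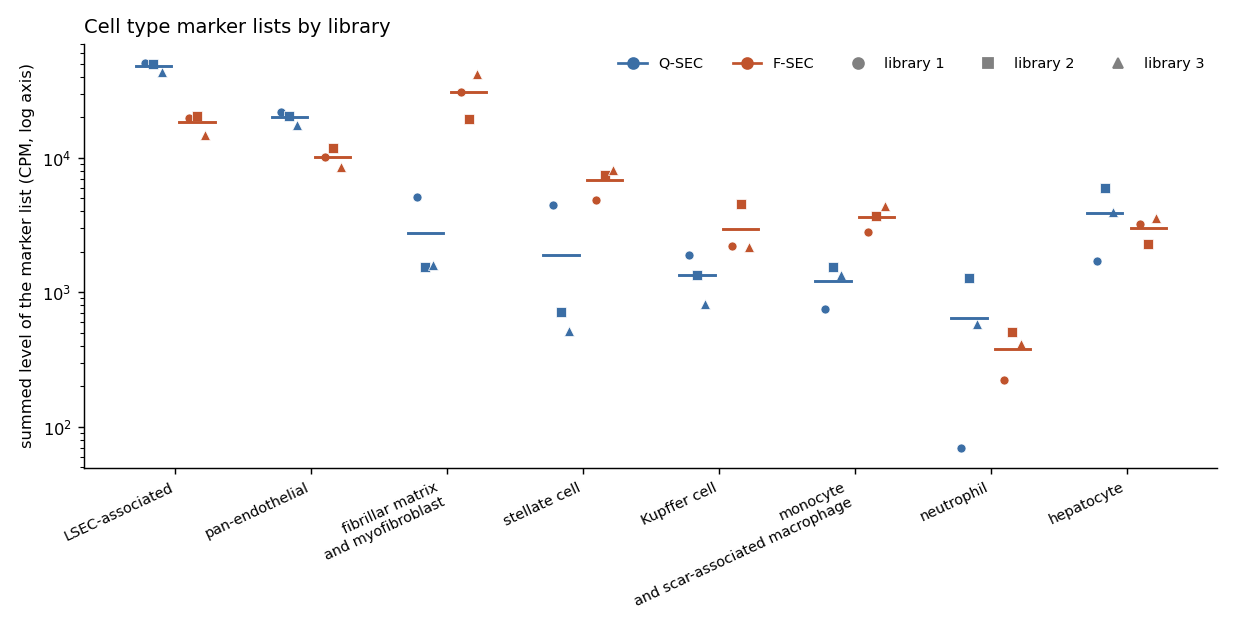
Summed level of 8 cell type marker lists in each library (CPM, log axis). Points are the 3 Q-SEC (blue) and 3 F-SEC (orange) libraries by number and bars are group means. Endothelial sums are lower and matrix sums higher in all 3 F-SEC libraries, and Q-SEC.1 lies with the F-SEC libraries for stellate cell markers.

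In all, 3455 genes passed the test, 23.8% of those tested, with 1705 rises (11.8%) and 1750 falls (12.1%). The numbers were alike in both directions and the sizes were not. The median called rise was 1.88 log2 units and the median called fall was -0.78, and 351 genes rose by more than 3 log2 units while 23 fell by more than that. Genes that rose were mostly low in control cells, with a median of 5.70 CPM in Q-SEC, and genes that fell were mostly abundant there, with a median of 74.3 CPM. The split between the directions depended on the scaling. Rises made up 49.3% of calls in the main fit, 76.0% when clone entries were tested with genes and 59.6% without the ribosomal RNA entry Rn45s and Lars2, a gene with a stretch that resembles ribosomal RNA. Clone entries moved the median of all genes from -0.05 to 0.16. Leaving out F-SEC.3 took falls from 1750 to 659, leaving out Q-SEC.2 or Q-SEC.3 to 787 or 811 and leaving out F-SEC.1 to 978. Rises went to 1004 and 899 without Q-SEC.2 and Q-SEC.3. The list counts below stand against 11.8% rises and 12.1% falls among all tested genes. The groups did not overlap in 43.7% of all tested genes, so separate groups in a named gene are common.

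**Figure D2:**
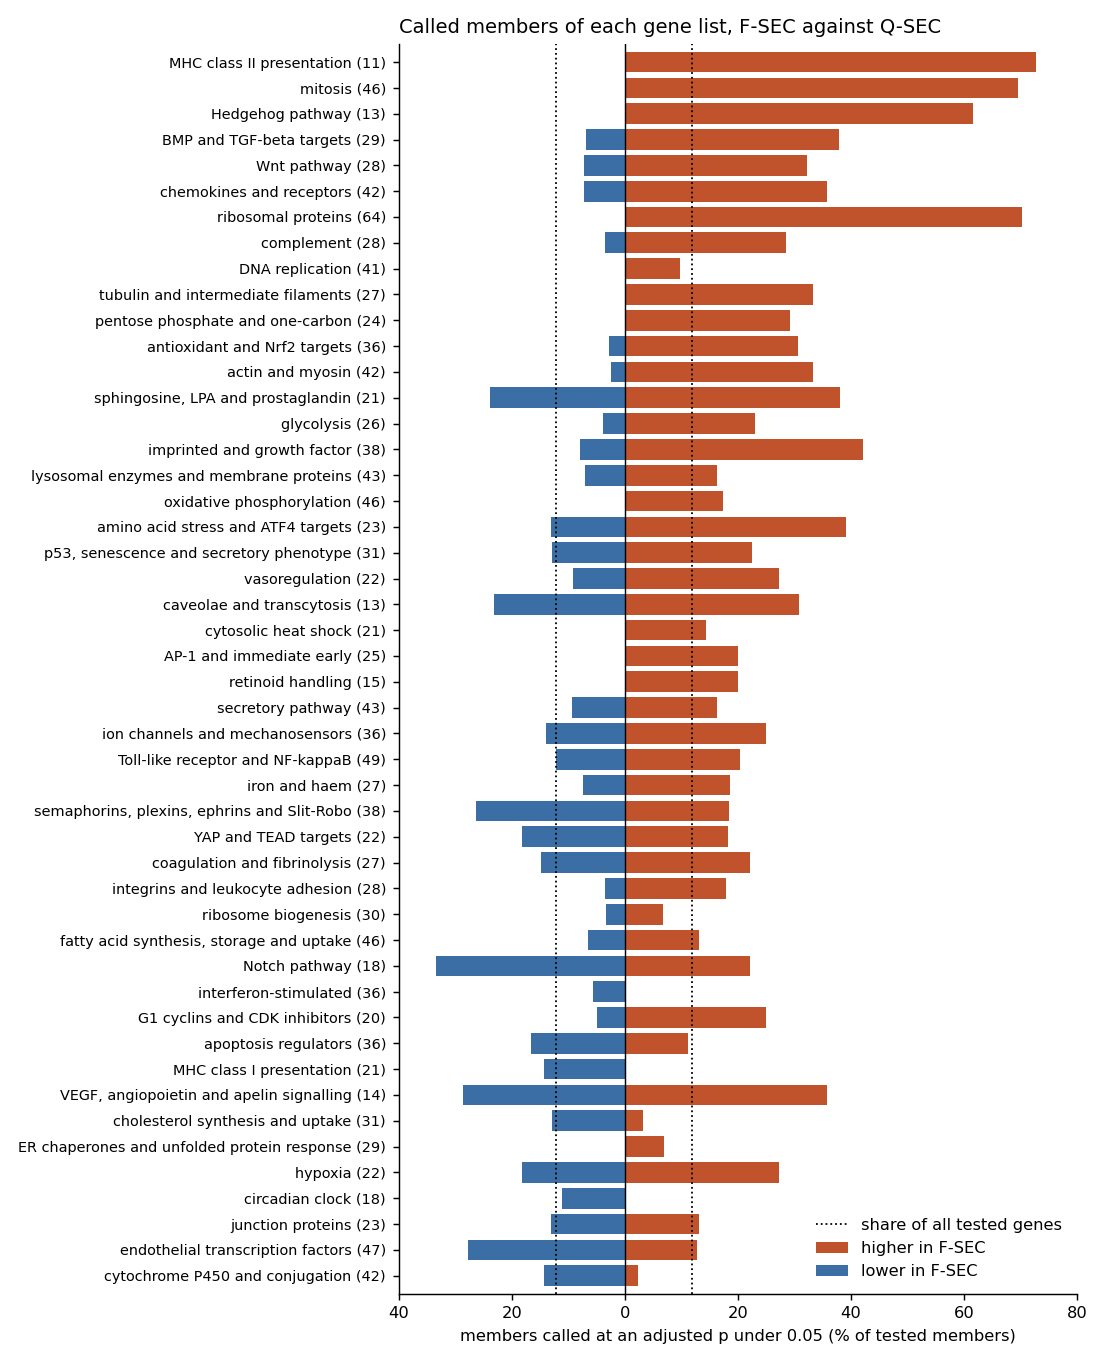
Share of the tested members of each gene list other than the cell type marker lists that rose (to the right, orange) or fell (to the left, blue) in F-SEC, in percent, with the number tested in parentheses and lists ordered by median log2 change. Dotted lines mark the share of all tested genes, 11.8% higher and 12.1% lower. MHC class II, mitosis, Hedgehog and ribosomal protein genes extend farthest to the right and Notch pathway, VEGF and endothelial transcription factor genes farthest to the left.

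The largest rises included genes of microfibrils, of other matrix and of macrophages, some of them members of the marker lists. Fbn2, which encodes the microfibril protein fibrillin-2, was at 0 in all 3 Q-SEC libraries and at 48.8, 38.9 and 87.7 CPM in F-SEC, at least 181-fold higher when set against the floor per library (adjusted p = 0.00035). Ltbp2, a microfibril protein of the latent TGF-β binding family, measured 0.319, 0.523 and 0.971 CPM in Q-SEC and 244, 181 and 347 CPM in F-SEC (log2 change 8.71 ± 0.65, adjusted p = 7.8e-05). Gpnmb, a glycoprotein of lipid-laden macrophages, measured 0.531, 0.314 and 0.971 CPM in Q-SEC and 332, 471 and 653 CPM in F-SEC (log2 change 9.62 ± 1.17, adjusted p = 0.00074). None of these overlapped between groups, and Gpnmb was at or near the floor in control cells. The macrophage elastase Mmp12 went from 1.17, 0.209 and 0 to 54.4, 42 and 157 CPM (adjusted p = 0.0036). The matrix protein genes Svep1, Mfap4 and Tnc rose by 8.15 ± 0.73, 7.52 ± 1.04 and 6.60 ± 0.78 log2 units, Prrx1, a transcription factor of mesenchymal progenitors, by 6.70 ± 0.70, the LIM protein gene Fhl2 by 6.47 ± 0.71 and the membrane dipeptidase Dpep1 by 8.18 ± 0.89. Stellate, portal fibroblast and matrix markers rose in the same libraries, and their part in these rises was not tested.

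Among the genes with the lowest p, Pdlim2, an adaptor of the actin cytoskeleton that also targets NF-κB and STAT proteins for degradation, measured 5.1, 6.17 and 5.61 CPM in Q-SEC and 45.5, 34.6 and 42.1 CPM in F-SEC (log2 change 2.85 ± 0.16, adjusted p = 1.6e-05). St6galnac6, a sialyltransferase of gangliosides, measured 6.06, 6.48 and 5.5 CPM in Q-SEC and 31.9, 33.4 and 31.5 CPM in F-SEC (log2 change 2.42 ± 0.16, adjusted p = 3.4e-05). Lbh, a transcription cofactor, measured 121, 102 and 86.7 CPM in Q-SEC and 368, 398 and 454 CPM in F-SEC (log2 change 1.98 ± 0.15, adjusted p = 7.8e-05). The spread within each group was small against the difference, and no omission of a library ended these calls. Shisa2, Mmp23, Plxdc2, Capn6, Scube1 and Tgfb3 were in the same class, with changes from 2.80 to 6.72 log2 units.

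Among the largest falls were a dendritic cell receptor and noncoding or membrane genes. Clec9a, a receptor with which dendritic cells sense dead cells, measured 91.6, 155 and 110.0 CPM in Q-SEC and 21.3, 23.6 and 21.8 CPM in F-SEC (log2 change -2.42 ± 0.24, adjusted p = 0.00028). The transcription factor gene of conventional dendritic cells Batf3 rose from 1.17, 0.627 and 0.647 to 2.44, 4.74 and 2.17 CPM (log2 change 1.92 ± 0.41, adjusted p = 0.0087, 0.054 with limma-voom), and Cd209a, a lectin of monocyte-derived dendritic cells, rose at low levels from 0.319, 0.105 and 0.108 to 1.83, 0.967 and 0.722 CPM. Zbtb46, a transcription factor shared by dendritic cells and endothelium, fell from 87, 120.2 and 106 to 42.3, 79.1 and 52.6 CPM (log2 change -0.85 ± 0.23, adjusted p = 0.024), its call ending without Q-SEC.3 (0.069), F-SEC.3 (0.1), Q-SEC.2 (0.088) or F-SEC.1 (0.08) and under testing with clone entries (0.06). Of 12 dendritic cell markers 4 rose and 2 fell. Xcr1 stayed near the floor, at 0.956, 0.314 and 0.431 against 0.870, 0.484 and 0.206 CPM (adjusted p = 0.94). Flt3 rose from 0.212, 0.314 and 0 to 1.13, 1.16 and 1.03 CPM. In Q-SEC Clec9a stood far above Xcr1, Flt3, Batf3 and Cd209a, and which cells carried it was not tested. For dendritic cell marker genes, rises numbered 2 without Q-SEC.3 or Q-SEC.1, and falls numbered 1 without Q-SEC.3, F-SEC.3, Q-SEC.2 or F-SEC.1. Gpr155, a membrane protein of lysosomes that senses cholesterol, measured 246, 209 and 182 CPM in Q-SEC and 40.9, 46.7 and 35.4 CPM in F-SEC (log2 change -2.37 ± 0.23, adjusted p = 0.00024).

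Neat1, the long noncoding RNA on which nuclear paraspeckles are built, fell from 149.7, 432 and 427 to 54.4, 96.2 and 73.4 CPM (log2 change -2.17 ± 0.40, adjusted p = 0.0049), with Q-SEC.1 well below the other control libraries but above every F-SEC library. The zinc finger gene Zfp715 fell by 1.94 ± 0.24, Bend4 by 1.87 ± 0.17, the mucin Muc6 by 1.90 ± 0.34 and the pyrin domain gene Pydc3 by 2.30 ± 0.37 log2 units, the last call ending under a block on library number in the 6 SEC libraries alone (0.058). The hepatocyte-secreted Mup3 and Mup7 and the gluconeogenic enzyme Pck1 were also among the largest falls, but in each of them Q-SEC.2 was highest, as it was for the hepatocyte marker sum, and their calls ended with adjusted p-values of 0.059, 0.065 and 0.058 without F-SEC.3, Mup7 and Pck1 also without Q-SEC.2 (0.050 and 0.060). The transporter Slc10a6 fell from 64.5, 29.5 and 24.6 to 9.49, 2.9 and 5.26 CPM (log2 change -2.74 ± 0.68, adjusted p = 0.017), which was 0.070 without F-SEC.3.

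By absolute level, the largest losses outside the endothelial and matrix lists used as a check included secreted and surface proteins of endothelium. Some genes of those lists lost more than Gpr116 or Nrp1 below, such as Ptprb, with a mean of 8214 CPM in Q-SEC and 2780 CPM in F-SEC. Sepp1, selenoprotein P, which carries selenium in plasma, was the highest protein-coding gene per length of Q-SEC and measured 16405, 12995 and 13854 CPM in Q-SEC and 6555, 5452 and 4212 CPM in F-SEC (log2 change -1.42 ± 0.26, adjusted p = 0.0049). Gpr116 (now Adgrf5), an adhesion receptor of endothelium, measured 3915, 3473 and 2660.1 CPM in Q-SEC and 1041, 1499 and 979 CPM in F-SEC (log2 change -1.51 ± 0.33, adjusted p = 0.0087). Nrp1, the coreceptor for VEGF and class 3 semaphorins, measured 2657, 2049.8 and 2016 CPM in Q-SEC and 944, 936 and 722 CPM in F-SEC (log2 change -1.37 ± 0.30, adjusted p = 0.0087). In all these genes the lowest Q-SEC library exceeded the highest F-SEC library. Ppap2b (now Plpp3), the ectoenzyme that degrades lysophosphatidic acid, fell by 1.34 ± 0.24, the kinase gene Snrk by 1.33 ± 0.23, the thioredoxin inhibitor Txnip by 0.97 ± 0.21 and the membrane protein gene Serinc3 by 0.97 ± 0.22 log2 units, the calls of Txnip (0.053) and Serinc3 (0.056) ending without F-SEC.3.

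Among the gains in absolute level outside the collagens, Ednrb, the endothelin B receptor, measured 196, 158 and 204 CPM in Q-SEC and 736, 1168 and 1113 CPM in F-SEC (log2 change 2.43 ± 0.38, adjusted p = 0.0023). Lrp1, an endocytic receptor, went from 339.7, 192 and 93.6 to 685, 1598 and 1642 CPM (log2 change 2.65 ± 0.52, adjusted p = 0.0061), though a block on library number with only the 6 SEC libraries gave 0.11. The secreted protein gene Ccdc80 went from 489.5, 399 and 379.6 to 1343, 1389 and 1831 CPM (log2 change 1.85 ± 0.28, adjusted p = 0.0019). Plvap, which forms the diaphragms that close fenestrae and caveolae, measured 735, 274 and 334 CPM in Q-SEC and 1204, 1368 and 1613 CPM in F-SEC (log2 change 1.64 ± 0.47, adjusted p = 0.029). Here Q-SEC.1 was above the other control libraries, and the call ended without Q-SEC.3 (0.11), F-SEC.3 (0.072), Q-SEC.2 (0.1), F-SEC.2 (0.051) or F-SEC.1 (0.054).

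Of 7 tested receptor chains for the interleukin-6 family of cytokines 4 fell and 1 rose, where 12.1% and 11.8% of all tested genes did. These cytokines signal through the shared chain gp130, encoded by Il6st, each with a partner receptor of its own, and through the kinase JAK1. In liver, endothelial cells are among the cells that answer leukaemia inhibitory factor and oncostatin M. The family was put together after these values had been seen, and 19 of its 22 genes looked up were expressed enough to be tested. Of all 19 genes 5 fell and 2 rose, the rises near the 11.8% of all tested genes.

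Il6st measured 4315, 4467 and 3535 CPM in Q-SEC and 1903, 2007 and 1754 CPM in F-SEC (log2 change -1.12 ± 0.21, adjusted p = 0.0052). Lifr, the receptor for leukaemia inhibitory factor, measured 2221, 2017 and 1560.3 CPM in Q-SEC and 677, 695 and 579 CPM in F-SEC (log2 change -1.57 ± 0.27, adjusted p = 0.0032). Osmr, the receptor for oncostatin M, measured 231, 231 and 237 CPM in Q-SEC and 95.6, 88.7 and 87.3 CPM in F-SEC (log2 change -1.36 ± 0.15, adjusted p = 0.00051). No library of either group overlapped the other in these 3 genes. Cntfr, the receptor for ciliary neurotrophic factor, measured 95.1, 102 and 91.9 CPM in Q-SEC and 23.1, 15.3 and 19.7 CPM in F-SEC (log2 change -2.31 ± 0.25, adjusted p = 0.00039), the largest of these falls. Jak1 measured 1703, 1842 and 1754 CPM in Q-SEC and 835, 749.5 and 654 CPM in F-SEC (log2 change -1.24 ± 0.17, adjusted p = 0.0014). All 5 calls held with each library left out, at adjusted p-values up to 0.032, and with the block.

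The rest of the family differed in direction. Il11ra1, the receptor for interleukin-11, rose from 24.3, 14.4 and 18 to 49.3, 31.7 and 33.6 CPM (log2 change 1.01 ± 0.25, adjusted p = 0.015, or 0.063 with Q-SEC.2 left out). Il6ra, the receptor for interleukin-6 itself, was at 9.77, 16.4 and 11.9 against 17.8, 38.3 and 22.2 CPM (log2 change 1.04 ± 0.36, adjusted p = 0.057). Stat3, the transcription factor at the end of the pathway, was at 195, 212 and 186 against 155, 199 and 172 CPM (log2 change -0.17 ± 0.14, adjusted p = 0.38), and Socs3, the inhibitor that the pathway induces, stood at 1096, 1225 and 939.7 CPM in Q-SEC and 1077, 1078 and 1102 CPM in F-SEC (adjusted p = 0.997). Of the ligands only Lif rose, from 0.637, 0.941 and 0.971 to 3.39, 2.71 and 3.3 CPM (log2 change 1.87 ± 0.51, adjusted p = 0.023, or 0.065 with Q-SEC.2 left out). The falls of Il6st, Lifr, Osmr and Jak1 can be set beside the median of -0.62 for pan-endothelial and -1.27 for LSEC-associated markers. In the stellate cell fraction of the same series the changes of Il6st, Lifr, Osmr, Cntfr and Jak1 with CCl4 were -0.97, -1.64, -1.07, -2.46 and -1.08, and the difference between the fractions was not called (adjusted p from 0.51 to 0.95).

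**Figure D3:**
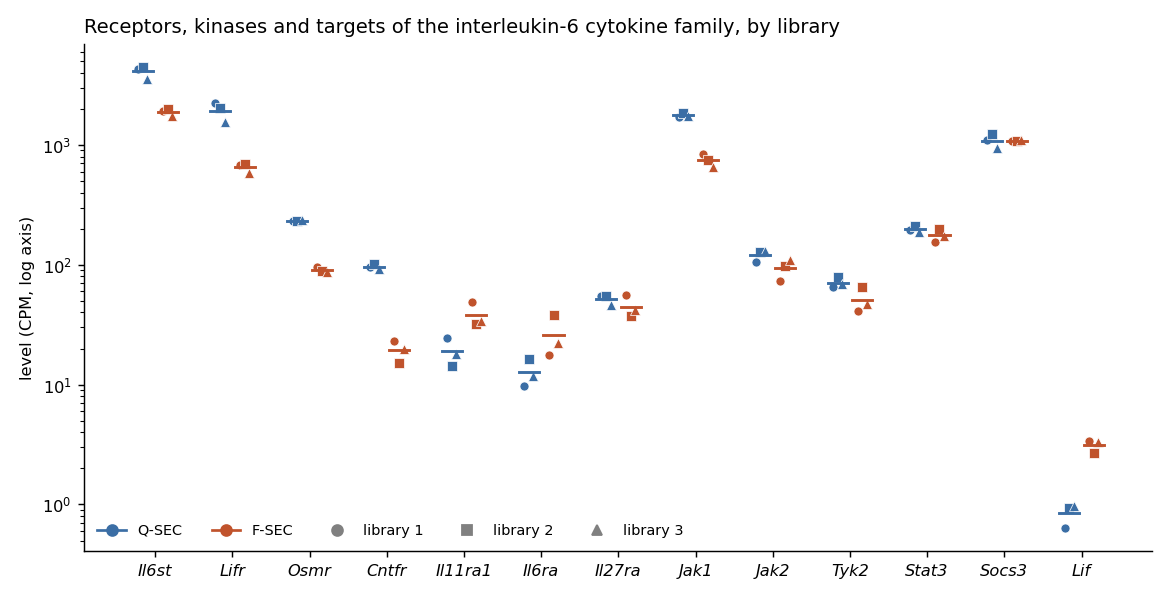
Levels of interleukin-6 family receptors, kinases, Stat3, Socs3 and Lif in each library (CPM, log axis). Points are the 3 Q-SEC (blue) and 3 F-SEC (orange) libraries and bars are group means. Il6st, Lifr, Osmr, Cntfr and Jak1 are lower in all 3 F-SEC libraries, while Stat3 and Socs3 overlap between groups.

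A receptor outside this family fell together with its ligand. Kit, the receptor for stem cell factor, measured 564, 707 and 681 CPM in Q-SEC and 289.9, 306 and 251 CPM in F-SEC (log2 change -1.20 ± 0.23, adjusted p = 0.0053), and its ligand Kitl measured 100.7, 125 and 146 CPM in Q-SEC and 51.2, 68.8 and 66.2 CPM in F-SEC (log2 change -1.001 ± 0.19, adjusted p = 0.005). Both belong to the list of imprinted and growth factor genes, in which 16 of 38 rose and 3 fell (median 0.47). Its rises included the imprinted noncoding RNAs H19 and Meg3, by 3.21 ± 0.57 and 2.79 ± 0.41 log2 units, the proteoglycan Gpc3 by 3.62 ± 0.42 and the platelet-derived growth factor chain Pdgfa by 1.42 ± 0.25, all from levels under 6 CPM in every Q-SEC library. For imprinted and growth factor genes, the rises came to 6 without Q-SEC.3, 8 without Q-SEC.2 and 10 without F-SEC.1.

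Genes of cell division rose, being high in F-SEC.1 and F-SEC.3 and close to control in F-SEC.2. Cells in mitosis express a late set of genes, for spindle, kinetochore and cyclin B proteins, whose promoters share a cell cycle genes homology region (CHR, TTTGAA) near the start site and CCAAT boxes upstream of it. Of 46 mitosis genes 32 rose and 0 fell (median log2 change 1.94). The F-SEC libraries all lay above the Q-SEC libraries for 14 of the 46, as they did for 19.7% of all tested genes. All 14 were among the 32 that rose, whose other members overlapped between groups. Cdc20, Ccnb1, Spc24 and Cdc25c, given below, are among the 14. Their summed level was 393, 348 and 286 CPM in Q-SEC and 1735, 381 and 1269 CPM in F-SEC. F-SEC.2 was the lowest F-SEC library for 46 of 46 genes and F-SEC.1 the highest for 42.

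The promoters of 4 of the genes that rose are shown, Ccnb2, Top2a and Cdk1 chosen after their values were seen, because they hold both elements within 120 bases, from 100 bases before to 20 bases after the RefSeq start site on GRCm38.p6. Capitals mark the CHR and CCAAT letters on either strand. Cdc20 activates the anaphase-promoting complex, Ccnb2 is a B-type cyclin, Top2a untangles chromosomes and Cdk1 is the mitotic kinase. The windows lie at chr4:118437324-118437443 (minus strand), chr9:70421535-70421654 (minus), chr11:99024170-99024289 (minus) and chr10:69352893-69353012 (minus).
Cdc20: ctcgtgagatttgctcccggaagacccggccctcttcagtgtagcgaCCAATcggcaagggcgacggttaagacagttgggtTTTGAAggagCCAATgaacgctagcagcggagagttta
Ccnb2: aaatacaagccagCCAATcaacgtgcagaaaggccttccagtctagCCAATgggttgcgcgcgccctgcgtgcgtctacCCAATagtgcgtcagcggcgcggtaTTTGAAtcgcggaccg
Top2a: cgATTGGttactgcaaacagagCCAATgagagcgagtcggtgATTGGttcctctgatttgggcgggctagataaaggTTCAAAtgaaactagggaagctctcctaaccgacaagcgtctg
Cdk1: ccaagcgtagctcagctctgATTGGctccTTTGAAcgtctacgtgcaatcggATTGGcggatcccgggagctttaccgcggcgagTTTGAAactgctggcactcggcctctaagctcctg

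Over whole promoter windows of 300 bases, from 250 before to 50 after the start, 37 of the 46 mitosis genes matched the RefSeq table with 39 windows. CHR letters stood in 76.9% of these windows and in 17.9% of the 32851 windows of all genes, CCAAT boxes in 74.4% and 37.4%, and both in 66.7% and 6.95%. Within the list, CHR letters stood in 71.4% of the windows of genes that rose and in 90.9% of those of genes not called. Letters of E2F sites, searched as GGCGGGAA and in a further form as TTTGGCGC, stood in 2.56% of them and in 2.68% of all windows. In DNA replication genes, 33 of which matched with 39 windows, the E2F letters stood in 30.8%, CCAAT boxes in 61.5% and CHR letters in 12.8%. These shares describe sequence only.

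Cdc20 measured 4.99, 3.24 and 3.67 CPM in Q-SEC and 41.2, 8.32 and 23.9 CPM in F-SEC (log2 change 2.62 ± 0.55, adjusted p = 0.0079). Ccnb1, the main mitotic cyclin, measured 2.66, 1.78 and 1.62 CPM in Q-SEC and 36.1, 5.13 and 25.3 CPM in F-SEC (log2 change 3.45 ± 0.67, adjusted p = 0.0059). Spc24, a kinetochore protein, measured 1.91, 1.46 and 0.863 CPM in Q-SEC and 18.4, 2.81 and 13 CPM in F-SEC (log2 change 3.004 ± 0.57, adjusted p = 0.0054). In each gene F-SEC.2 exceeded the control libraries by far less than the other F-SEC libraries did. Cdc25c, the phosphatase that activates CDK1, rose from 0.319, 0.314 and 0.108 to 5.22, 1.16 and 4.64 CPM (adjusted p = 0.0072), near the floor in every control library.

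The mitosis calls rested on the model and on the libraries. Limma-voom called 3 of the 46 and the fit of only the 6 SEC libraries 14 (20 with the block). Leaving out 1 library, which leaves fewer samples, gave 7, 6, 7 and 10 without Q-SEC.2, Q-SEC.3, F-SEC.1 and F-SEC.3, and 41 without F-SEC.2, and libraries 2 and 3 alone gave 6. Limma-voom ended the calls of Ccnb1 (adjusted p = 0.071) and Cdc20 (0.052), and libraries 2 and 3 alone that of Cdc25c (0.056). Genes of DNA replication rose for 4 of 41 and fell for 0 (median 0.69), close to the 11.8% of all genes, and F-SEC.2 was lowest among the F-SEC libraries for 41 of 41. The 4 were Ccne1, Cdt1, E2f1 and Rrm2. Without F-SEC.2, 14 of the 41 rose, and without any of the other 5 libraries 0 did. Kupffer cell markers ran the other way between these libraries, F-SEC.2 being highest for 14 of 15 Kupffer cell markers, and the cells that carried the mitotic transcripts cannot be told from bulk RNA.

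Some regulators of entry into the cycle separated the groups in every library. Myc, a driver of growth and proliferation, measured 22.8, 21.7 and 19.4 CPM in Q-SEC and 100.8, 83 and 96.7 CPM in F-SEC (log2 change 2.13 ± 0.22, adjusted p = 0.0003), and Rb1, the retinoblastoma protein that restrains E2F, measured 76.1, 70.1 and 69.2 CPM in Q-SEC and 35.6, 31.9 and 28.2 CPM in F-SEC (log2 change -1.17 ± 0.15, adjusted p = 0.00082). Neither gene overlapped between the groups. Cdk6, a kinase that inactivates the retinoblastoma protein, rose from 5.1, 4.49 and 3.56 to 7.75, 10.4 and 14 CPM, and the locus of the cell cycle inhibitor p16, Cdkn2a, from 2.97, 1.25 and 1.51 to 5.22, 4.35 and 5.67 CPM (log2 change 1.40 ± 0.34, adjusted p = 0.014), which was 0.059 and 0.062 without Q-SEC.2 and Q-SEC.3. Of G1 cyclins and CDK inhibitors 5 of 20 rose and 1 fell. G1 rises were 2 without Q-SEC.3 or Q-SEC.2 and 3 without F-SEC.3.

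**Figure D4:**
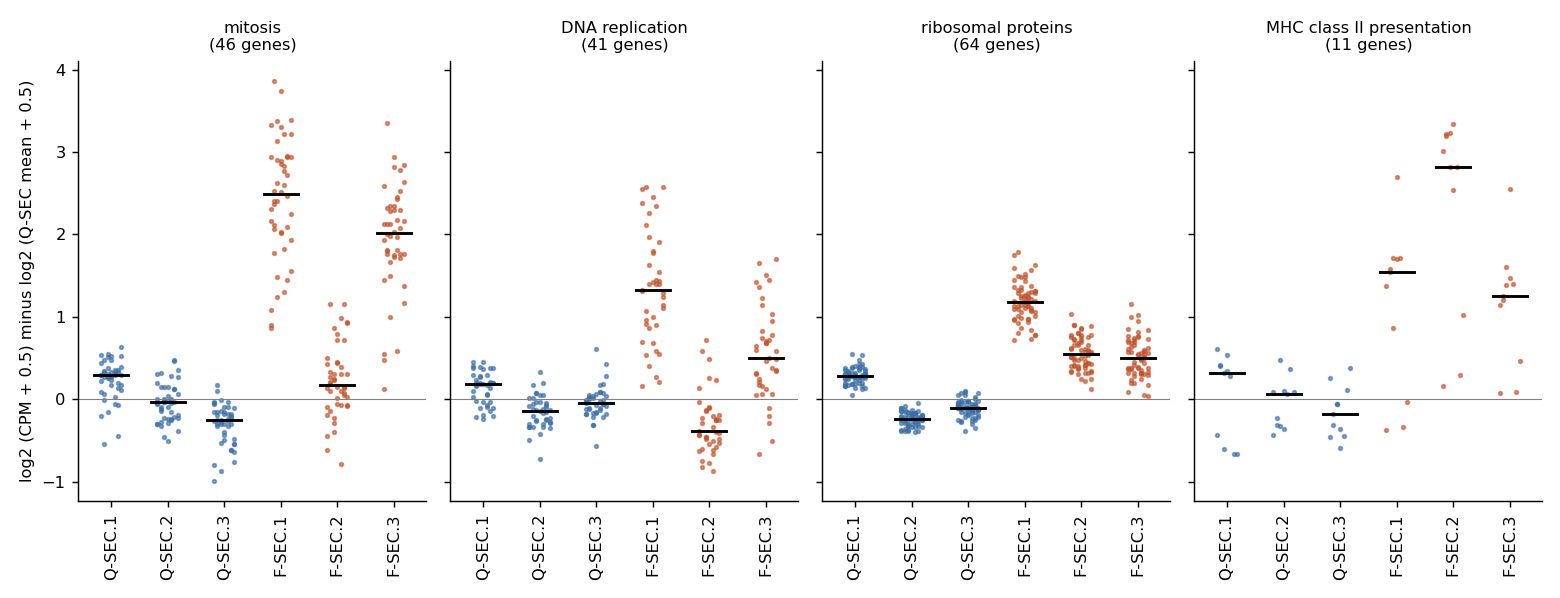
Level of each gene of 4 lists in each library relative to its Q-SEC mean, as log2 (CPM + 0.5) minus log2 (Q-SEC mean + 0.5). Points are genes, blue for Q-SEC and orange for F-SEC libraries, and black bars are medians over the genes. Mitosis and DNA replication genes are near control in F-SEC.2, ribosomal protein genes are above control in all 3 F-SEC libraries, and MHC class II genes are highest in F-SEC.2.

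Most ribosomal protein genes rose, each by less than 3-fold. Of 64 tested, 45 rose and 0 fell, with a median log2 change of 0.76 and a range from 0.35 to 1.33 over all 64. Their summed level was 17680.5, 12467 and 13528 CPM in Q-SEC and 33296, 21473 and 20909 CPM in F-SEC. F-SEC.1 was the highest library for 64 of 64 genes, and Q-SEC.1 the highest control library for 63. Rpl10a measured 172, 118 and 129 CPM in Q-SEC and 485, 263 and 311 CPM in F-SEC (log2 change 1.33 ± 0.23, adjusted p = 0.0035), Rps7 measured 214, 155 and 199.5 CPM in Q-SEC and 535, 354 and 378 CPM in F-SEC (log2 change 1.15 ± 0.18, adjusted p = 0.0025), and Rpl12 measured 191, 138 and 148 CPM in Q-SEC and 431, 287 and 308 CPM in F-SEC (log2 change 1.10 ± 0.18, adjusted p = 0.003). The F-SEC libraries all lay above the Q-SEC libraries for 49 of the 64 genes, as they did for 19.7% of all tested genes. The count was 61 with the block, 27 in the fit of only the 6 SEC libraries, and 17, 17 and 25 without Q-SEC.2, Q-SEC.3 and F-SEC.1, and no setting called a member lower. Ribosomal protein genes have many processed pseudogenes, and how reads were shared with them is not given in the sources used here.

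Of genes that build ribosomes 2 of 30 rose and 1 fell (median 0.09). The nucleolar protein gene Npm1 rose by 0.53 ± 0.15 and Nhp2, a protein of box H/ACA particles, by 1.21 ± 0.31, while Nop14 fell by 0.38 ± 0.12 log2 units. The call of Npm1 ended without Q-SEC.3 (0.092), F-SEC.3 (0.05), Q-SEC.2 (0.1) or F-SEC.1 (0.093) and under a fit of only the 6 SEC libraries (0.067), that of Nhp2 without Q-SEC.2 (0.073) or F-SEC.1 (0.066), with a change of 0.80 without F-SEC.1, and that of Nop14 without Q-SEC.3 (0.1), F-SEC.3 (0.27), Q-SEC.2 (0.13), F-SEC.2 (0.1) or Q-SEC.1 (0.1), with a change of -0.25 without F-SEC.3. The number of biogenesis rises was 1 without Q-SEC.3 or F-SEC.3 and 0 without Q-SEC.2 or F-SEC.1, and the number of biogenesis falls was 0 without Q-SEC.3, F-SEC.3, Q-SEC.2 or F-SEC.2. Oxidative phosphorylation genes rose for 8 of 46 and fell for 0 (median 0.36), and the count was 16 with the block. Atp5g1, a subunit c gene of ATP synthase, measured 24, 21.4 and 17.5 CPM in Q-SEC and 45.9, 29.2 and 36.3 CPM in F-SEC (log2 change 0.82 ± 0.18, adjusted p = 0.01), but with Q-SEC.3 left out 1 gene of the list was called, with Q-SEC.2 left out 1 and with F-SEC.1 left out 2. F-SEC.1 was again highest for 44 of 46.

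Notch pathway genes changed in both directions. Notch1 and Notch4 with their ligand Dll4 are endothelial, whereas Notch3 and its target Heyl are known from pericytes and smooth muscle. Of 18 genes tested 4 rose (22.2%) and 6 fell (33.3%), beside 11.8% and 12.1% of all genes (median -0.02). Notch3 measured 7.01, 0.836 and 1.19 CPM in Q-SEC and 51.6, 99.6 and 121 CPM in F-SEC (log2 change 4.91 ± 0.67, adjusted p = 0.0014), and Heyl measured 13.8, 1.25 and 0.755 CPM in Q-SEC and 54, 57.1 and 75.1 CPM in F-SEC (log2 change 3.55 ± 0.90, adjusted p = 0.018). Q-SEC.1 was the highest control library for both, as it was for stellate cell markers, and without it the changes were 6.47 and 5.93 log2 units. With a block on library number in the 6 SEC libraries alone their adjusted p-values were 0.074 and 0.11, and the call of Heyl also ended without Q-SEC.3 (0.054) or Q-SEC.2 (0.061). Hey1, a target in endothelium and in other cells, measured 4.89, 3.66 and 4.42 CPM in Q-SEC and 13.7, 23.4 and 15.6 CPM in F-SEC (log2 change 2.02 ± 0.31, adjusted p = 0.0022). Lfng, a glycosyltransferase that tunes Notch receptors, fell from 84.6, 65.1 and 81 to 45.7, 37.5 and 32.3 CPM (log2 change -0.997 ± 0.25, adjusted p = 0.017), its call ending without Q-SEC.3 (0.056) or F-SEC.3 (0.085). Notch1, Notch4, Dll4, Mfng and Maml3 were the other falls and Hey2 the other rise, named here after their values were seen. For Notch genes, rises numbered 2 without Q-SEC.3 or Q-SEC.2, and falls numbered 1 without Q-SEC.3, 0 without F-SEC.3, 2 without Q-SEC.2 and 3 without Q-SEC.1 or F-SEC.1.

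Wnt genes changed mainly upward. Of 28 tested 9 rose (32.1%) and 2 fell (7.14%), beside 11.8% and 12.1% of all genes (median 0.87). Among the ligands Wnt5a, which acts largely outside β-catenin, measured 0.85, 1.57 and 2.26 CPM in Q-SEC and 22.3, 20.5 and 34.9 CPM in F-SEC (log2 change 4.04 ± 0.41, adjusted p = 0.00029). Among receptors Fzd1 measured 15.7, 8.36 and 11.9 CPM in Q-SEC and 73.9, 73.2 and 142 CPM in F-SEC (8.03-fold higher by mean CPM, adjusted p = 0.00057) and Fzd2 rose from 0.319, 0.314 and 0.863 to 8.53, 4.64 and 7.53 CPM. In contrast Fzd4, the receptor for norrin on endothelium, measured 284, 243 and 232 CPM in Q-SEC and 109, 139.9 and 125 CPM in F-SEC (log2 change -1.02 ± 0.23, adjusted p = 0.011), and the coreceptor Lrp6 measured 389, 373 and 313 CPM in Q-SEC and 135, 217 and 201 CPM in F-SEC (log2 change -0.96 ± 0.19, adjusted p = 0.0067). The groups did not overlap in any of these 5 genes. Wnt2 and Rspo3, the signals by which sinusoidal endothelium patterns hepatocytes, were at -0.57 ± 0.41 and 0.76 ± 0.54 (adjusted p = 0.33 and 0.32). For Wnt genes, the rises came to 5 without F-SEC.3 or Q-SEC.2.

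Among 13 Hedgehog genes 8 rose and 0 fell (median 1.40). The pathway is active in activated stellate cells and portal fibroblasts. The summed level of its genes was 180.3, 152 and 132 CPM in Q-SEC and 251, 258 and 327 CPM in F-SEC. The coreceptors Boc and Gas1 measured 1.27, 1.05 and 0.755 against 14.9, 8.71 and 20.8 CPM (log2 change 3.83 ± 0.42, adjusted p = 0.00039) and 10.4, 2.51 and 3.02 against 95.3, 49.7 and 97.6 CPM (log2 change 3.92 ± 0.65, adjusted p = 0.003). Smo, the signal transducer, measured 23.9, 22.1 and 18.3 CPM in Q-SEC and 51.1, 53.2 and 65.2 CPM in F-SEC (log2 change 1.40 ± 0.26, adjusted p = 0.0048). Gli2, a transcription factor of the pathway, rose from 0.319, 0 and 0 to 2.18, 0.774 and 2.89 CPM (adjusted p = 0.01), with 1 control library near and the others below the floor. Portal fibroblast markers rose for 8 of 10, with Eln, elastin, at 42.6, 18.7 and 46.9 against 239.8, 185 and 274 CPM and Fbln1, fibulin-1, at 1.06, 0.836 and 0.647 against 24.6, 12.2 and 19.1 CPM. The rises included Cd34, which the paper counts among genes of continuous endothelium. Entpd2, Aspn and Vit, the markers by which the paper identified portal fibroblasts, were not among them. Entpd2 and Clec3b were not called (adjusted p = 0.12 and 0.99), and Aspn and Vit, at up to 0.825 and 0.216 CPM, were not tested. Hedgehog rises were 5 without Q-SEC.3, F-SEC.3, Q-SEC.2 or F-SEC.1.

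TGF-β and BMP genes rose for 11 of 29 and fell for 2 (median 0.90). Among ligands Tgfb3 measured 4.89, 6.27 and 7.33 CPM in Q-SEC and 41.4, 37 and 50.4 CPM in F-SEC (log2 change 2.80 ± 0.20, adjusted p = 4.4e-05), while Bmp6, the endothelial signal that sets hepcidin and with it body iron, measured 312, 223 and 149 CPM in Q-SEC and 69.6, 111 and 74.9 CPM in F-SEC (log2 change -1.42 ± 0.43, adjusted p = 0.035). The groups did not overlap in either, but the Bmp6 call ended without F-SEC.3 (0.12), Q-SEC.2 (0.079), Q-SEC.1 (0.095) or F-SEC.1 (0.12) and under testing with clone entries (0.061), no filter (0.056) or libraries 2 and 3 alone (0.071). Fstl1, a secreted modulator of the family, rose from 63.8, 19 and 29.7 to 654, 412 and 957 CPM (log2 change 4.17 ± 0.62, adjusted p = 0.0019). Atoh8, a transcription factor that responds to BMP, rose from 14.4, 19.8 and 17.4 to 43.7, 42.8 and 48.9 CPM (log2 change 1.39 ± 0.22, adjusted p = 0.0024). The number of TGF-β and BMP falls was 1 without Q-SEC.3, F-SEC.2 or F-SEC.1 and 0 without F-SEC.3, Q-SEC.2 or Q-SEC.1.

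**Figure D5:**
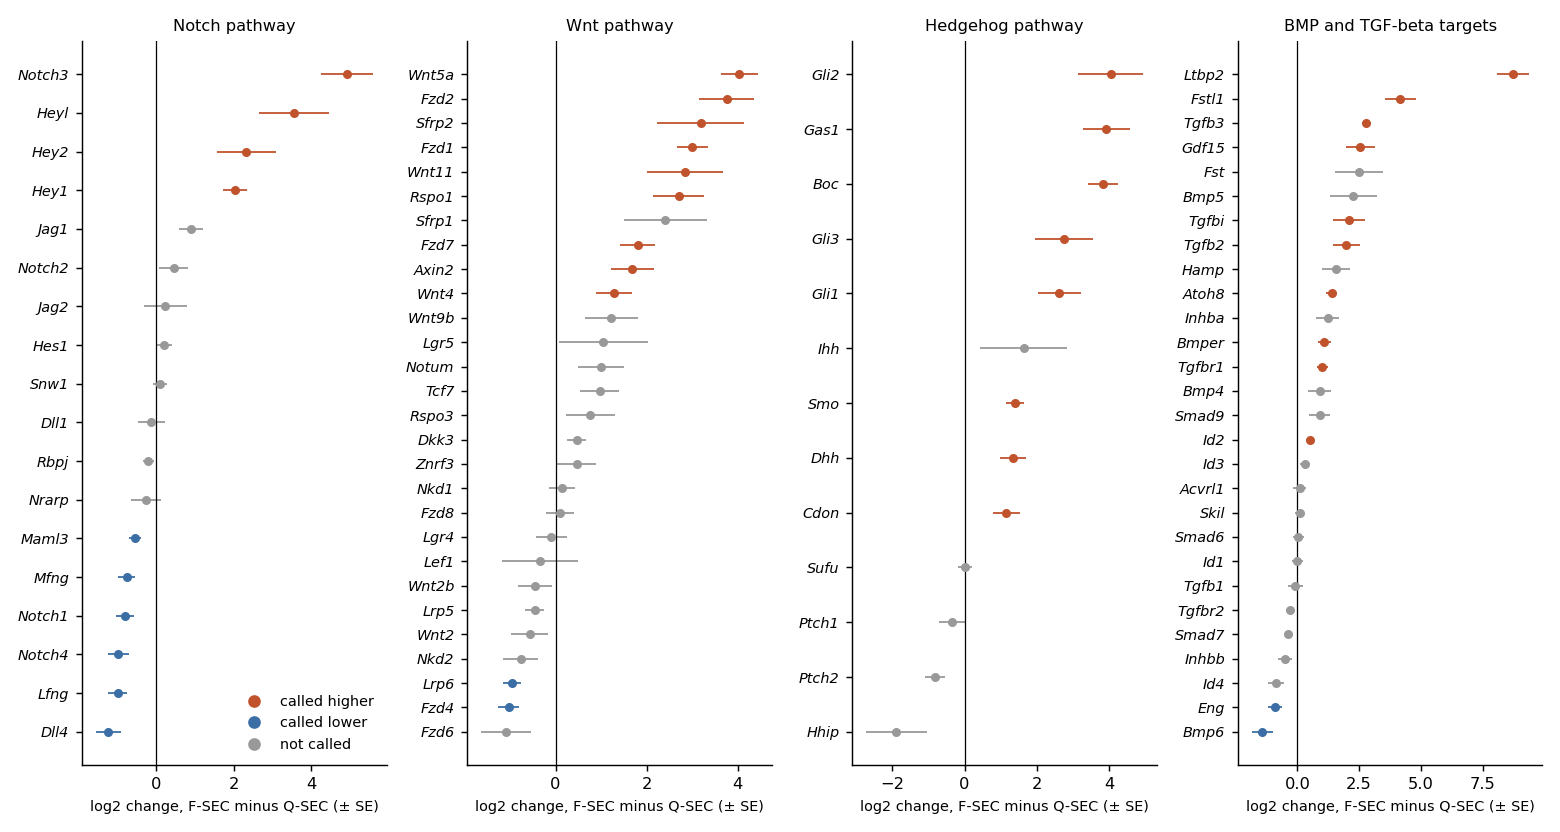
Log2 change of F-SEC over Q-SEC for tested genes of the Notch, Wnt, Hedgehog and BMP and TGF-β lists, with bars for 1 SE over 3 libraries a group. Orange genes rose, blue genes fell and grey genes did not pass the test. In the Notch panel Notch3 and Heyl lie far to the right at 4.91 and 3.55.

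Signals of vessel growth changed in both directions. Of 14 VEGF, angiopoietin and apelin genes 5 rose and 4 fell (median -0.11). Vegfc, a growth factor of lymphatic vessels, measured 19.9, 20.5 and 26.7 CPM in Q-SEC and 50.9, 54.9 and 63.6 CPM in F-SEC (log2 change 1.34 ± 0.21, adjusted p = 0.0025), and Figf, now Vegfd, rose from 0.531, 0.105 and 0.539 to 26.5, 8.03 and 28.3 CPM (log2 change 5.70 ± 0.78, adjusted p = 0.0014). Their receptor Flt4 fell from 2254, 2926 and 2162 to 1053, 1145 and 844 CPM (log2 change -1.27 ± 0.26, adjusted p = 0.0066). Esm1, a gene of endothelial tip cells, measured 28.9, 37.2 and 46 CPM in Q-SEC and 92, 66.4 and 85.9 CPM in F-SEC (log2 change 1.12 ± 0.24, adjusted p = 0.0083), and Angptl4 measured 13.9, 10.2 and 9.17 CPM in Q-SEC and 100.5, 25.9 and 70.6 CPM in F-SEC (log2 change 2.56 ± 0.44, adjusted p = 0.0035). Vegfc, Esm1 and Flt4 separated the groups in every library. Arterial Efnb2 fell from 221, 215 and 227 to 100.1, 135 and 101.4 CPM (log2 change -0.98 ± 0.21, adjusted p = 0.0079). For VEGF genes, falls numbered 1 without F-SEC.3.

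Of 38 semaphorin, plexin, ephrin and Slit-Robo genes 7 rose (18.4%) and 10 fell (26.3%), beside 11.8% and 12.1% of all genes. Ntn4, a netrin of vascular basement membrane, measured 485, 501 and 494 CPM in Q-SEC and 164, 189 and 123 CPM in F-SEC (log2 change -1.63 ± 0.24, adjusted p = 0.0019). Sema6a measured 461, 562 and 426 CPM in Q-SEC and 167, 224 and 163 CPM in F-SEC (log2 change -1.39 ± 0.21, adjusted p = 0.0022). The netrin receptor Unc5b measured 41.3, 26.6 and 22.6 CPM in Q-SEC and 148, 145 and 221 CPM in F-SEC (log2 change 2.51 ± 0.41, adjusted p = 0.0028) in the opposite direction. Each of these 3 genes was on 1 side of the other group in all libraries. For guidance genes, the falls came to 6 without F-SEC.3 or Q-SEC.2.

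Among genes that set vessel tone, the receptors for natriuretic peptides moved in opposite directions and prostacyclin genes rose. Npr1, the guanylate cyclase receptor for atrial natriuretic peptide, measured 1002, 938 and 998 CPM in Q-SEC and 349, 482 and 335 CPM in F-SEC (log2 change -1.33 ± 0.25, adjusted p = 0.0048), while the clearance receptor Npr3 rose from 20.2, 9.3 and 19.7 to 43.2, 49.3 and 64 CPM (log2 change 1.67 ± 0.40, adjusted p = 0.014, or 0.052 with Q-SEC.2 left out). Ptgis, prostacyclin synthase, measured 5.84, 2.09 and 2.37 CPM in Q-SEC and 67.1, 40.3 and 51.6 CPM in F-SEC (log2 change 3.94 ± 0.54, adjusted p = 0.0014), and its receptor Ptgir rose from 1.06, 0.941 and 2.16 to 5.13, 8.32 and 10.8 CPM. S1pr2, a receptor for sphingosine 1-phosphate, measured 7.12, 7.94 and 7.33 CPM in Q-SEC and 27.8, 28.9 and 30.5 CPM in F-SEC (log2 change 1.96 ± 0.31, adjusted p = 0.0024). Of 22 vasoregulation genes 6 rose and 2 fell, and of 21 sphingosine, lysophosphatidic acid and prostaglandin genes 8 rose and 5 fell. Vasoregulation rises were 3 without Q-SEC.3 and 2 without Q-SEC.2, and vasoregulation falls were 1 without Q-SEC.3, F-SEC.3, F-SEC.2, Q-SEC.1 or F-SEC.1. The number of sphingosine, LPA and prostaglandin falls was 1 without Q-SEC.3, F-SEC.3 or Q-SEC.2, 3 without F-SEC.2 or F-SEC.1 and 2 without Q-SEC.1.

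Among 27 genes of coagulation and fibrinolysis 6 rose (22.2%) and 4 fell (14.8%), the falls near the 12.1% of all genes and the rises beside 11.8%. F8, coagulation factor VIII, which SECs secrete, measured 1088, 1953 and 1724 CPM in Q-SEC and 247, 324 and 282 CPM in F-SEC (log2 change -2.48 ± 0.32, adjusted p = 0.00098). Tfpi, the inhibitor of the tissue factor pathway, measured 416, 431 and 456 CPM in Q-SEC and 254, 171 and 191 CPM in F-SEC (log2 change -1.08 ± 0.21, adjusted p = 0.0061). Against these falls, Plat, tissue plasminogen activator, measured 4.89, 3.55 and 6.69 CPM in Q-SEC and 91.2, 78.3 and 133 CPM in F-SEC (log2 change 4.32 ± 0.35, adjusted p = 0.0001), and Serpine2, the protease nexin that inhibits thrombin and plasminogen activators, measured 2.23, 1.57 and 1.62 CPM in Q-SEC and 131, 48.8 and 123 CPM in F-SEC (log2 change 5.79 ± 0.69, adjusted p = 0.00068). Procr, the endothelial protein C receptor, rose from 9.45, 5.12 and 7.01 to 19.9, 21.8 and 18.8 CPM (log2 change 1.48 ± 0.21, adjusted p = 0.0016). All 5 genes separated the groups, as did 43.7% of all tested genes. For coagulation genes, falls numbered 2 without F-SEC.3.

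The integrin chains Itgb5 and Itgav measured 44.8, 26 and 20 against 269.5, 349 and 353 CPM (log2 change 3.42 ± 0.41, adjusted p = 0.00074) and 49.7, 39.4 and 49.2 against 89.3, 124 and 159.8 CPM (log2 change 1.43 ± 0.24, adjusted p = 0.0029). Sele, the E-selectin with which inflamed endothelium slows leukocytes, rose from 9.77, 9.83 and 13.4 to 40.1, 30.5 and 65.2 CPM (log2 change 2.04 ± 0.41, adjusted p = 0.0069), and Cd47, the signal that restrains phagocytes, fell from 347, 314 and 329.9 to 216, 196 and 179 CPM (log2 change -0.74 ± 0.13, adjusted p = 0.0034). Cav2, caveolin-2, fell from 202, 158 and 199.6 to 84.1, 85.1 and 82.1 CPM (log2 change -1.16 ± 0.23, adjusted p = 0.0063), while Ehd2, which stabilises caveolae, rose from 34.5, 23.9 and 33.1 to 157, 101.2 and 182 CPM (log2 change 2.26 ± 0.37, adjusted p = 0.0028). Tjp1, the tight junction scaffold ZO-1, fell from 639, 654 and 589.7 to 265, 343 and 285 CPM (log2 change -1.08 ± 0.24, adjusted p = 0.011, 0.056 without F-SEC.3), and Cdh2, N-cadherin, rose from 32.7, 7.74 and 6.58 to 109.7, 116 and 183 CPM (log2 change 3.12 ± 0.68, adjusted p = 0.0097), with Q-SEC.1 again the highest control library. In the last, the fit of only the 6 SEC libraries with the block gave 0.082. Of integrin and adhesion genes 5 of 28 rose and 1 fell, of caveolar genes 4 of 13 rose and 3 fell and of junction genes 3 of 23 rose and 3 fell, where 11.8% and 12.1% of all genes did. For integrin genes, the rises came to 3 without Q-SEC.3, F-SEC.3 or Q-SEC.1. Caveolar rises were 2 without Q-SEC.3, Q-SEC.2 or F-SEC.1, and caveolar falls were 1 without F-SEC.3. The number of junction rises was 1 without Q-SEC.3, F-SEC.3 or F-SEC.1, and the number of junction falls was 1 without Q-SEC.3, Q-SEC.2 or F-SEC.1 and 0 without F-SEC.3.

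Of 47 endothelial transcription factors 13 fell and 6 rose, beside 12.1% and 11.8% of all genes (median -0.35). Tal1, a factor of blood and endothelial identity, measured 73.6, 74.7 and 75.5 CPM in Q-SEC and 39.2, 36.4 and 31.5 CPM in F-SEC (log2 change -1.06 ± 0.15, adjusted p = 0.0016), and Klf7 fell from 63.1, 66.1 and 48.1 to 28.4, 38.6 and 29.9 CPM (log2 change -0.87 ± 0.18, adjusted p = 0.007). In the other direction Gata6 measured 8.82, 13.7 and 19 CPM in Q-SEC and 48.8, 48.3 and 71.3 CPM in F-SEC (log2 change 2.02 ± 0.41, adjusted p = 0.0068) and Snai2, a factor of epithelial to mesenchymal transition, rose from 8.39, 5.54 and 5.61 to 19.8, 13.8 and 19.2 CPM (log2 change 1.43 ± 0.31, adjusted p = 0.0093). Of other factors of this transition, named after their values were seen, Zeb1 fell (log2 change -0.85 ± 0.19, adjusted p = 0.0093). Snai1, Zeb2 and Twist1 were not called (adjusted p = 0.35, 0.11 and 0.12). Twist2 rose at low levels, from 0.956, 0 and 0 to 4.18, 3.1 and 3.82 CPM (adjusted p = 0.016). Gata4, which specifies sinusoidal against continuous endothelium, was at 443, 386 and 405 against 368, 455 and 347 CPM (log2 change -0.08 ± 0.21, adjusted p = 0.81). The falls depended on scaling and libraries, at 8 with upper-quartile scaling, 7 without Rn45s and Lars2, 6 with clone entries or with no filter. For transcription factor genes, rises numbered 3 without Q-SEC.2, and falls numbered 5 without Q-SEC.3, 2 without F-SEC.3, 7 without Q-SEC.2 and 8 without F-SEC.2 or Q-SEC.1. Of 18 clock genes 2 fell, Per2 from 27.4, 29.9 and 22.9 to 11.7, 4.84 and 7.01 CPM (log2 change -1.76 ± 0.32, adjusted p = 0.0046) and Clock from 121, 116 and 114 to 46, 79.9 and 86.1 CPM (log2 change -0.73 ± 0.21, adjusted p = 0.032), and 0 rose. The call of Clock ended without Q-SEC.3 (0.078), Q-SEC.2 (0.078), Q-SEC.1 (0.064) or F-SEC.1 (0.061) and under testing with clone entries (0.085), no filter (0.05), libraries 2 and 3 alone (0.054), a fit of only the 6 SEC libraries (0.062) or a block on library number in the 6 SEC libraries alone (0.052). The time of day of collection was not given in the sources used here. Of AP-1 and immediate early genes 5 of 25 rose and 0 fell, led by Egr2, from 3.08, 1.78 and 1.29 to 13.1, 34.1 and 32.6 CPM (log2 change 3.69 ± 0.42, adjusted p = 0.00054), and Myc, while Atf3, a stress factor that cell isolation can induce, rose from 90, 109 and 107 to 140.5, 342 and 266 CPM (log2 change 1.29 ± 0.29, adjusted p = 0.0099). For clock genes, the falls came to 1 without Q-SEC.3, Q-SEC.2 or F-SEC.1. AP-1 rises were 3 without Q-SEC.3, F-SEC.3, Q-SEC.2, F-SEC.2, Q-SEC.1 or F-SEC.1.

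MHC class II genes, which display peptides to helper T cells and mark dendritic cells and macrophages, rose for 8 of 11 and fell for 0 (median 2.14). H2-Eb1, a β chain, measured 41.1, 26.2 and 31.6 CPM in Q-SEC and 109.6, 313 and 86.9 CPM in F-SEC (log2 change 2.36 ± 0.52, adjusted p = 0.01). H2-DMa and H2-DMb1, which load the peptides, measured 7.65, 3.87 and 3.88 against 17.8, 32.1 and 15.2 CPM and 4.46, 3.76 and 2.48 against 12.8, 28.2 and 10.2 CPM (log2 change 2.08 ± 0.37, adjusted p = 0.0044 and log2 change 2.25 ± 0.40, adjusted p = 0.0039). F-SEC.2 was highest for 11 of 11, and the summed level ran from 350, 232 and 213 CPM in Q-SEC to 951, 2424 and 802.5 CPM in F-SEC. Ctss, the protease of the class II pathway, measured 61.9, 52.4 and 32.4 CPM in Q-SEC and 319, 498 and 288 CPM in F-SEC (log2 change 2.91 ± 0.52, adjusted p = 0.004). Kupffer cell markers had F-SEC.2 highest as well (14 of 15), and their part in the rise was not tested. The number of class II rises was 4 without Q-SEC.3 and 5 without Q-SEC.2. The change of H2-Eb1 was 1.57 without F-SEC.2, and its call ended under a block on library number in the 6 SEC libraries alone (0.091).

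Few MHC class I and interferon-stimulated genes passed the test. Of 21 class I genes 0 rose and 3 fell, among them Tap2, the peptide transporter, from 148, 147 and 149.7 to 108, 121 and 91.3 CPM (log2 change -0.47 ± 0.13, adjusted p = 0.025), and Nlrc5, the transactivator of class I genes, from 60.9, 76.6 and 78.7 to 24.5, 48.1 and 28.7 CPM (log2 change -1.10 ± 0.26, adjusted p = 0.013). Of 36 interferon-stimulated genes 0 rose and 2 fell (median -0.06), with Gbp7, a guanylate-binding protein, from 125, 131 and 158 to 65.9, 74.5 and 68.5 CPM (log2 change -0.99 ± 0.18, adjusted p = 0.0047) and Iigp1 from 229.6, 171 and 219 to 118, 108 and 132 CPM (log2 change -0.79 ± 0.20, adjusted p = 0.017). With the block 1 of the 36 rose and 4 fell. The call of Tap2 ended without Q-SEC.3 (0.078), F-SEC.3 (0.16), Q-SEC.2 (0.069), Q-SEC.1 (0.053) or F-SEC.1 (0.054) and under testing with clone entries (0.21), no filter (0.075), libraries 2 and 3 alone (0.091) or a fit of only the 6 SEC libraries (0.068), with a change of -0.29 without F-SEC.3, that of Nlrc5 without F-SEC.3 (0.062) and under libraries 2 and 3 alone (0.055) and that of Iigp1 without Q-SEC.3 (0.061), F-SEC.3 (0.056) or F-SEC.1 (0.05) and under testing with clone entries (0.061). Class I falls numbered 5 with the block. For class I genes, falls numbered 1 without Q-SEC.3, Q-SEC.2 or Q-SEC.1 and 0 without F-SEC.3. For interferon genes, the falls came to 1 without Q-SEC.3 or F-SEC.3.

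Chemokine genes rose for 15 of 42 (35.7%) and fell for 3 (7.14%), beside 11.8% and 12.1% of all genes (median 0.79). Cx3cl1, the membrane-bound chemokine fractalkine, measured 3.82, 2.4 and 3.02 CPM in Q-SEC and 24.4, 22.8 and 29.4 CPM in F-SEC (log2 change 3.04 ± 0.40, adjusted p = 0.001), and its receptor Cx3cr1, a monocyte gene, measured 1.59, 4.91 and 5.28 CPM in Q-SEC and 34, 61.6 and 40 CPM in F-SEC (log2 change 3.52 ± 0.50, adjusted p = 0.0016). Ccl2, which draws monocytes, measured 6.48, 5.02 and 4.64 CPM in Q-SEC and 20.3, 17.8 and 25.4 CPM in F-SEC (log2 change 1.97 ± 0.32, adjusted p = 0.0027). Ccl9 rose from 2.66, 5.54 and 2.91 to 33.9, 23.3 and 32.1 CPM (adjusted p = 0.0027). No library of 1 group reached the other in these 4 genes. Monocyte and scar-associated macrophage markers rose in the same libraries, with Plac8 at 26.3, 19 and 16.8 against 173, 98.1 and 117 CPM and Mmp13 at 0.744, 0.105 and 0.431 against 6.27, 16.3 and 12.5 CPM. Ccbp2 (now Ackr2), a decoy receptor that removes inflammatory chemokines, fell from 97.1, 109 and 99.6 to 72.3, 66.6 and 45.5 CPM (log2 change -0.73 ± 0.20, adjusted p = 0.024), with a change of -0.47 without F-SEC.3, and this call ended without Q-SEC.3 (0.062), F-SEC.3 (0.13) or Q-SEC.2 (0.077) and under testing with clone entries (0.095). Chemokine rises were 9 without Q-SEC.3, and chemokine falls were 1 without F-SEC.3.

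Complement genes rose for 8 of 28 and fell for 1 (median 0.73). Serping1, the C1 inhibitor, measured 138, 83.4 and 51.8 CPM in Q-SEC and 583, 713 and 687 CPM in F-SEC (log2 change 2.86 ± 0.39, adjusted p = 0.0013), C1s, the protease it blocks, measured 39.1, 23.3 and 17.7 CPM in Q-SEC and 135, 164 and 185 CPM in F-SEC (log2 change 2.60 ± 0.40, adjusted p = 0.0023), and C3ar1, the receptor for C3a on myeloid cells, measured 6.37, 5.02 and 3.67 CPM in Q-SEC and 39.6, 69.4 and 56.5 CPM in F-SEC (log2 change 3.45 ± 0.61, adjusted p = 0.004). The single fall was Cd55, which shields cells from complement, from 614, 702 and 751 to 290.2, 272 and 275 CPM (log2 change -1.30 ± 0.21, adjusted p = 0.0025). All 4 genes separated the groups, as did 43.7% of all tested genes. The number of complement rises was 4 without Q-SEC.3, and the number of complement falls was 3 without Q-SEC.1. With the block 3 fell. In the Toll-like receptor and NF-κB list 10 of 49 rose and 6 fell. Tlr3, which senses double-stranded RNA, fell from 65.8, 67 and 69.7 to 35.7, 36.5 and 41.7 CPM (log2 change -0.83 ± 0.14, adjusted p = 0.0031). For Toll-like receptor genes, rises numbered 1 without Q-SEC.3 and 6 without F-SEC.2 or Q-SEC.1.

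Of 26 glycolysis genes 6 rose and 1 fell (median 0.54). Slc2a1, the glucose transporter GLUT1, measured 9.45, 16.8 and 12.5 CPM in Q-SEC and 26.7, 29 and 22.9 CPM in F-SEC (log2 change 1.02 ± 0.21, adjusted p = 0.0068), Hk2, hexokinase 2, measured 9.88, 9.51 and 7.76 CPM in Q-SEC and 23.6, 46.4 and 24.2 CPM in F-SEC (log2 change 1.79 ± 0.37, adjusted p = 0.0073) and Tpi1 rose from 71.7, 68.4 and 65.7 to 192, 118 and 129 CPM (log2 change 1.09 ± 0.22, adjusted p = 0.0063), while Ldhb, the lactate dehydrogenase chain of oxidative tissue, fell from 50.2, 48.3 and 49.6 to 30.5, 27.4 and 22.4 CPM (log2 change -0.88 ± 0.17, adjusted p = 0.0055). For glycolysis genes, the rises came to 3 without Q-SEC.3, and the falls came to 2 without F-SEC.1. With the block 2 fell. In pentose phosphate and one-carbon metabolism 7 of 24 rose and 0 fell, with Psat1, of serine synthesis, from 1.17, 0.732 and 1.29 to 11.7, 3.58 and 11.7 CPM (log2 change 3.07 ± 0.51, adjusted p = 0.003) and Umps, of pyrimidine synthesis, from 9.67, 8.05 and 9.6 to 22.5, 17.5 and 19.5 CPM (log2 change 1.12 ± 0.20, adjusted p = 0.0036). Pentose phosphate rises were 2 without Q-SEC.3 or Q-SEC.2 and 3 without F-SEC.1.

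Amino acid uptake genes diverged. Slc1a5, the glutamine transporter ASCT2, measured 4.67, 7 and 8.95 CPM in Q-SEC and 43.4, 29.3 and 36.5 CPM in F-SEC (log2 change 2.40 ± 0.28, adjusted p = 0.00061), whereas Slc7a5, the leucine transporter LAT1, measured 128, 129 and 111 CPM in Q-SEC and 59, 74.6 and 57 CPM in F-SEC (log2 change -0.95 ± 0.22, adjusted p = 0.011, 0.062 without F-SEC.3). The proline synthesis genes Aldh18a1 and Pycr1 rose from 9.77, 10.7 and 11.6 to 31, 20.2 and 30.6 CPM (log2 change 1.35 ± 0.22, adjusted p = 0.0029) and from 1.06, 1.15 and 0.647 to 3.74, 2.81 and 5.16 CPM (log2 change 2.02 ± 0.40, adjusted p = 0.0063). Proline is abundant in collagen, and matrix markers rose in the same libraries, but a link between these rises was not tested. Of the 23 ATF4 target genes 9 rose and 3 fell. The number of ATF4 target rises was 5 without Q-SEC.2, and the number of ATF4 target falls was 0 without F-SEC.3 and 1 without Q-SEC.2 or F-SEC.2.

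Of 31 cholesterol genes 1 rose and 4 fell (12.9%), the falls near the 12.1% of all genes. Mylip, the ligase that degrades the LDL receptor and a target of liver X receptors, measured 905, 818 and 763 CPM in Q-SEC and 293, 293 and 244 CPM in F-SEC (log2 change -1.58 ± 0.24, adjusted p = 0.0019), and the sterol carrier Stard4 fell from 79.4, 72.2 and 67.5 to 32.8, 39.8 and 31.7 CPM (log2 change -1.07 ± 0.22, adjusted p = 0.0068). Nr1h3, the liver X receptor α of macrophages and hepatocytes, was the rise, from 13.9, 11.7 and 8.3 to 33.3, 68.8 and 35.2 CPM (log2 change 2.01 ± 0.41, adjusted p = 0.0069). In fatty acid metabolism 6 of 46 rose and 3 fell, led by Lpl, lipoprotein lipase, at 34.8, 19.9 and 10.2 against 413, 278 and 488 CPM (log2 change 4.18 ± 0.68, adjusted p = 0.0028), and Scd2, a desaturase, at 95.4, 72.1 and 93.6 against 157, 170.4 and 186 CPM (log2 change 0.97 ± 0.16, adjusted p = 0.0027). Aldh1a2, a retinoic acid-forming enzyme of stellate and mesothelial cells, rose from 0.106, 0.523 and 0.647 to 10.4, 12.4 and 33.5 CPM (adjusted p = 0.0016), and mesothelial markers such as Wt1 and Msln rose too, from 0.212, 0.627 and 0.216 to 22.8, 8.42 and 19.5 CPM and from 1.38, 1.05 and 1.51 to 18.5, 6.48 and 7.01 CPM. For cholesterol genes, falls numbered 2 without Q-SEC.3, F-SEC.3, Q-SEC.2 or F-SEC.1. For fatty acid genes, the rises came to 3 without Q-SEC.3, and the falls came to 1 without Q-SEC.3 and 0 without F-SEC.3, Q-SEC.2 or F-SEC.1. With the block 5 fatty acid genes fell.

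Iron and redox genes rose in part. Fth1, the ferritin heavy chain, measured 408, 344 and 327 CPM in Q-SEC and 1007, 895 and 952 CPM in F-SEC (log2 change 1.40 ± 0.26, adjusted p = 0.0048), and of the 27 iron genes 5 rose and 2 fell. Among 36 antioxidant genes 11 rose and 1 fell, with the secreted glutathione peroxidase Gpx3 at 7.97, 7.53 and 4.85 against 151, 74.2 and 58.1 CPM (log2 change 3.80 ± 0.52, adjusted p = 0.0014) and the glutathione transferases Gstm5 and Gstt1 up by 1.40 ± 0.26 and 1.53 ± 0.34 log2 units. The member that fell was Nfe2l2, the factor NRF2 that drives these genes, from 235, 226 and 232 to 191, 188 and 156 CPM (log2 change -0.37 ± 0.12, adjusted p = 0.044), its call ending without Q-SEC.3 (0.12), F-SEC.3 (0.29), Q-SEC.2 (0.1), F-SEC.2 (0.057), Q-SEC.1 (0.099) or F-SEC.1 (0.052) and under RLE scaling (0.063), testing with clone entries (0.41), a filter at 10 CPM (0.052), no filter (0.16), libraries 2 and 3 alone (0.091), a fit of only the 6 SEC libraries (0.13), a block on library number in the 6 SEC libraries alone (0.073), upper-quartile scaling (0.078) or removal of Rn45s and Lars2 (0.096), with a change of -0.21 without F-SEC.3. Antioxidant rises were 4 without Q-SEC.3, 5 without Q-SEC.2 and 7 without F-SEC.1, and antioxidant falls were 0 without Q-SEC.3, F-SEC.3, Q-SEC.2, F-SEC.2, Q-SEC.1 or F-SEC.1. The number of iron rises was 2 without Q-SEC.3 and 3 without F-SEC.3 or F-SEC.2, and the number of iron falls was 1 without Q-SEC.3, F-SEC.3 or F-SEC.2 and 0 without Q-SEC.2 or F-SEC.1. With the block 8 iron genes rose.

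Of 29 endoplasmic reticulum chaperones and unfolded protein response genes 2 rose and 0 fell (median -0.17). The rises were Fkbp10, a collagen-folding prolyl isomerase, from 7.12, 2.82 and 3.77 to 103, 43.5 and 113 CPM (log2 change 4.23 ± 0.60, adjusted p = 0.0016), and Ppib, another prolyl isomerase that folds collagen, from 197, 121 and 131 to 299, 181 and 232 CPM (log2 change 0.67 ± 0.21, adjusted p = 0.043), its call ending without Q-SEC.3 (0.15), F-SEC.3 (0.073), Q-SEC.2 (0.16) or F-SEC.1 (0.16) and under a fit of only the 6 SEC libraries (0.099). In the secretory pathway 7 of 43 rose and 4 fell (13 rose with the block), led by Kdelr3, a retrieval receptor, from 6.27, 2.2 and 3.24 to 38.1, 11.6 and 38.6 CPM (log2 change 2.91 ± 0.55, adjusted p = 0.0054), and Creb3l1, a factor that activates secretory and collagen genes, from 25.3, 24.3 and 26 to 80.5, 44.6 and 63.3 CPM (log2 change 1.32 ± 0.27, adjusted p = 0.0074). The small heat shock protein Cryab rose from 12.3, 7.74 and 10.1 to 46.2, 29.7 and 45.5 CPM (log2 change 2.01 ± 0.32, adjusted p = 0.0025), in a list of 21 with 3 rises. Hypoxia genes rose for 6 of 22 and fell for 4, the falls including Ndrg1, from 527, 433 and 408 to 237, 156 and 125 CPM (log2 change -1.40 ± 0.28, adjusted p = 0.0063), and Kdm3a, from 93, 129 and 121 to 54, 75.7 and 66 CPM (log2 change -0.81 ± 0.17, adjusted p = 0.0077). For chaperone genes, rises numbered 1 without Q-SEC.3, F-SEC.3, Q-SEC.2 or F-SEC.1. For secretory genes, the rises came to 3 without Q-SEC.3, 4 without Q-SEC.2 or F-SEC.1 and 11 without Q-SEC.1, and the falls came to 1 without F-SEC.3 or Q-SEC.1 and 2 without Q-SEC.2 or F-SEC.1. Heat shock rises were 1 without Q-SEC.3, F-SEC.3 or Q-SEC.2. The number of hypoxia rises was 2 without Q-SEC.3 and 3 without F-SEC.3 or Q-SEC.2, and the number of hypoxia falls was 2 without Q-SEC.3, F-SEC.3 or Q-SEC.2.

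Xiap, the inhibitor of caspases, measured 432, 440.5 and 465 CPM in Q-SEC and 166, 241 and 229 CPM in F-SEC (log2 change -1.07 ± 0.18, adjusted p = 0.003), and Apaf1, which assembles the apoptosome, measured 138, 148 and 153 CPM in Q-SEC and 87.5, 88.2 and 81.7 CPM in F-SEC (log2 change -0.77 ± 0.14, adjusted p = 0.0038). Fas, the death receptor, fell from 132, 94.1 and 109 to 50.7, 36.6 and 32.6 CPM (log2 change -1.48 ± 0.31, adjusted p = 0.0077). Bcl2a1b, a survival gene of leukocytes, rose from 1.49, 0.627 and 0.324 to 9.05, 16.6 and 10.9 CPM (log2 change 3.89 ± 0.58, adjusted p = 0.0019). Of the 36 apoptosis regulators 4 rose (11.1%) and 6 fell (16.7%), near the 11.8% and 12.1% of all genes, and in the p53 and senescence list 7 of 31 rose and 4 fell, with Igfbp5, an insulin-like growth factor binding protein, from 21.4, 36.1 and 36.7 to 119, 98.7 and 103 CPM (log2 change 1.77 ± 0.31, adjusted p = 0.0036). For apoptosis genes, rises numbered 2 without Q-SEC.2 or F-SEC.1. For p53 genes, the rises came to 4 without Q-SEC.3 or Q-SEC.2, and the falls came to 2 without Q-SEC.3, F-SEC.2 or Q-SEC.1 and 1 without F-SEC.3, Q-SEC.2 or F-SEC.1.

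Cytoskeletal genes rose in part, in muscle-type and in general members. Of 42 actin and myosin genes 14 rose and 1 fell. Tpm2, β-tropomyosin of contractile cells, measured 4.99, 1.05 and 0.863 CPM in Q-SEC and 92.9, 29 and 69.2 CPM in F-SEC (log2 change 4.78 ± 0.79, adjusted p = 0.003), Capg, an actin-capping protein rich in macrophages, measured 7.33, 9.62 and 8.95 CPM in Q-SEC and 73.6, 75.1 and 85.2 CPM in F-SEC (log2 change 3.17 ± 0.51, adjusted p = 0.0027), and Myh10, non-muscle myosin IIB, measured 55.1, 58.9 and 65.5 CPM in Q-SEC and 134, 120.0 and 216 CPM in F-SEC (log2 change 1.39 ± 0.22, adjusted p = 0.0026). Lmna, which encodes lamin A, a nuclear lamina protein that scales with tissue stiffness, measured 17, 20.3 and 18.5 CPM in Q-SEC and 154, 76.8 and 143 CPM in F-SEC (log2 change 2.74 ± 0.30, adjusted p = 0.00045). F-SEC.2 was the lowest F-SEC library for Tpm2 and Lmna, as it was for the matrix marker sum. Of tubulin and intermediate filament genes 9 of 27 rose and 0 fell, with the tubulins Tubb6, Tubb3 and Tubb2a up by 2.74 ± 0.43, 2.82 ± 0.36 and 1.44 ± 0.18 log2 units. Among YAP and TEAD targets, often read as a sign of stiffness, 4 of 22 rose and 4 fell, with Axl, a receptor tyrosine kinase, from 77.7, 47.7 and 25.7 to 283, 397 and 357 CPM (log2 change 2.78 ± 0.50, adjusted p = 0.0042) and Crim1, a membrane protein, from 473, 445 and 442 to 194, 267 and 234 CPM (log2 change -0.97 ± 0.22, adjusted p = 0.011). Actin and myosin falls were 0 without Q-SEC.3, F-SEC.3, Q-SEC.2 or F-SEC.1. The number of YAP target falls was 2 without F-SEC.3 or Q-SEC.2.

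Cacna1c, the L-type calcium channel, measured 1.27, 0.836 and 0.431 CPM in Q-SEC and 6.53, 12.3 and 14.8 CPM in F-SEC (log2 change 3.70 ± 0.43, adjusted p = 0.00055), and Kcnmb1, a potassium channel subunit of smooth muscle, rose from 0.319, 0 and 0.216 to 3.74, 1.93 and 6.5 CPM (adjusted p = 0.0029). Of 36 channels 9 rose (25%) and 5 fell (13.9%), beside 11.8% and 12.1% of all genes. Cytochrome P450 and conjugation genes fell for 6 of 42 (14.3%), near the 12.1% of all genes, and rose for 1. The falls were led by Cyp2d22 from 180.1, 208 and 170.2 to 50.5, 76.2 and 51.9 CPM (log2 change -1.64 ± 0.28, adjusted p = 0.0031) and Cyp4b1 from 1199.9, 1036 and 845 to 394, 307 and 227 CPM (log2 change -1.73 ± 0.35, adjusted p = 0.0066). The gene that rose was Por, the reductase of microsomal P450 enzymes, from 74.3, 67.8 and 55.3 to 126, 106 and 109 CPM (log2 change 0.78 ± 0.16, adjusted p = 0.0074). For channel genes, rises numbered 5 without Q-SEC.3, F-SEC.3, Q-SEC.2 or F-SEC.2, and falls numbered 2 without Q-SEC.3 or F-SEC.1, 0 without F-SEC.3, 1 without Q-SEC.2 and 3 without Q-SEC.1. For P450 genes, the rises came to 2 without Q-SEC.2 or Q-SEC.1, and the falls came to 3 without F-SEC.3.

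In lysosomes 7 of 43 rose (16.3%) and 3 fell (6.98%), beside 11.8% and 12.1% of all genes. Ctsk, a collagen-degrading cathepsin, measured 6.8, 5.44 and 4.85 CPM in Q-SEC and 57.6, 34.7 and 48.3 CPM in F-SEC (log2 change 3.04 ± 0.35, adjusted p = 0.00055), the tetraspanin Cd63 measured 39.3, 21.3 and 29 CPM in Q-SEC and 249.8, 198 and 263 CPM in F-SEC (log2 change 2.99 ± 0.46, adjusted p = 0.0023), and Ctso, another cathepsin, fell from 119.6, 111 and 117 to 78.3, 75.3 and 72.5 CPM (log2 change -0.62 ± 0.12, adjusted p = 0.0057). The groups were separate in all 3. Lysosomal falls were 1 without Q-SEC.3 or F-SEC.3.

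By level per length of transcript, 8 of the 10 highest entries were shared by Q-SEC and F-SEC, and of these only Sepp1 changed. Apart from the ribosomal RNA entry Rn45s the first entry was Sepp1 in Q-SEC and Apoe in F-SEC. B2m, the light chain of MHC class I, was at 2849.6, 1967 and 2168 against 2748, 2059 and 1704 CPM (log2 change -0.10 ± 0.26, adjusted p = 0.8), Apoe, apolipoprotein E, at 3851, 3249 and 3181 against 4111, 6718 and 3704 CPM (log2 change 0.50 ± 0.31, adjusted p = 0.26), Igfbp7 at 3311, 2303 and 2113 against 3427, 2671 and 3083 CPM (log2 change 0.25 ± 0.34, adjusted p = 0.62) and Aqp1, the water channel of endothelium, at 9074, 7095 and 5796 against 5074, 5087 and 3493 CPM (log2 change -0.69 ± 0.33, adjusted p = 0.15). Sepp1 went from 6506 to 2439.7 CPM per kilobase, as group means, and Apoe from 2739 to 3872.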

How the data were processed

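RNA of sinusoidal endothelial and stellate cell fractions was sequenced on an Illumina HiSeq. Per the labels the reads were converted with bcl2fastq and aligned with TopHat2 2.0.13 to mm10. The counting tool, the annotation release and the use of strand are not given in the sources used here, so overlapping and antisense genes, multigene families (Mup, class I H2, Bcl2a1b) and genes with pseudogenes are uncertain. The authors deposited raw read counts per entry for each library, which were analysed here, and RPKM values, which the authors scaled to entry length and total counts and which entered no test. The length of each entry was used for levels per kilobase. The deposited table held 56826 lines, 1 of them without values. The 33353 cDNA clone entries, with 19.85 to 23.52% of the counts of a SEC library, were left out, and 27 symbols that a spreadsheet had turned into dates were restored. RefSeq symbols matched 22896 of 23472 genes.

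Counts were fitted with edgeR 4.0.16 in R 4.3.3 (filterByExpr, TMM and the robust quasi-likelihood test; all 12 libraries entered with a coefficient for each group, which left 8 residual degrees of freedom and a common dispersion that corresponds to a coefficient of variation of 0.280), with Benjamini-Hochberg adjustment over 14489 genes and a threshold of 0.05. The difference between fractions was the contrast of both CCl4 changes in that fit. Gene counts of 9291420 to 11309878 per SEC library set the precision. Replicates differed by more than sampling noise. On simulated data with 200 changed genes, the F-SEC against Q-SEC test was run over 14291 genes. It recovered 27% of 2-fold and 87% of 4-fold changes, with 5.79% false calls. The changed genes were drawn only from genes above a minimum mean level, so recovery at low levels was not measured. The real data gave 3455 calls, so far fewer genes changed in the simulation, and its shares need not be those of the real comparison.

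Libraries 1, 2 and 3 carry matching numbers, the first of each group being without a number in its title. The deviations of same-numbered libraries from their group means correlated at 0.31, 0.25 and 0.16, so the numbers may pair the libraries. The main fit and the contrast between fractions did not use this pairing and treated the libraries as independent. A block on library number was an alternative. The others were RLE and upper-quartile scaling, 2 filters, limma-voom (limma 3.58.1), DESeq2 1.42.0, stricter thresholds, only the 6 SEC libraries, clone entries, removal of Rn45s and Lars2 and omission of each library.

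Members and lists were chosen with earlier results of these data known. Genes are named if they were among the 15 largest rises or falls with non-overlapping groups and at least 10 CPM, the 10 largest gains or losses of level, the 10 lowest p-values, up to 4 members of a list by adjusted p with up to 2 called against its median, the 10 highest per length, or cell type markers. The rankings by change, by gain or loss of level and by p left out the endothelial and matrix lists used as a check. The ranking by change also left out genes named Col, Lam, Gm or Rik. Other genes are said to be chosen after their values were seen. Some genes that this rule names are not reported or drawn here, though they count in their lists. Promoters came from RefSeq on GRCm38.p6, in windows of 300 bases searched on both strands for the letters given in the text.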

Additional observations from a re-analysis of the deposited data

Results flagged for a closer look

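Of the 377 genes given by the naming rule, 12 changed differently with CCl4 in the endothelial than in the stellate cell fraction. The test was edgeR's test of the difference itself (F-SEC minus Q-SEC, less F-HSC minus Q-HSC), with p-values adjusted over all genes. Many of the 377 were chosen by their change in F-SEC against Q-SEC. That change is part of this contrast, so the choice favours larger endothelial changes. The same test called 116 of all 14489 genes, 0.801%, with the endothelial change above the stellate cell change in 82 and below it in 34. The difference for Pdlim2 was 2.45 ± 0.21 on the log2 scale (adjusted p = 0.0018), with a change of 2.85 in the endothelial and 0.40 in the stellate cell fraction. Lbh differed by 1.52 ± 0.21 (adjusted p = 0.019), Plxdc2 by 2.29 ± 0.41 (adjusted p = 0.037), with changes of 1.98 and 4.604 in the endothelial and of 0.46 and 2.31 in the stellate cell fraction. The glutamine transporter gene Slc1a5 differed by 2.27 ± 0.38 (adjusted p = 0.032) and Ptgis by 3.53 ± 0.69 (adjusted p = 0.047), with stellate cell changes of 0.13 and 0.41.

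For 5 of the genes, which include markers of macrophages and dendritic cells, the fitted changes had opposite signs in the 2 fractions. Batf3 differed by 4.31 ± 0.54 (adjusted p = 0.014), at 1.92 in the endothelial and -2.39 in the stellate cell fraction. Plac8 differed by 3.77 ± 0.49 (adjusted p = 0.019), Cd209a by 4.47 ± 0.70 (adjusted p = 0.029), H2-DMa by 2.95 ± 0.50 (adjusted p = 0.036) and H2-DMb1 by 2.67 ± 0.53 (adjusted p = 0.049). The muscle filament gene Des, a stellate cell marker, differed by 3.25 ± 0.54 (adjusted p = 0.032), with changes of 4.54 and 1.29. Atf3 was the single gene among these whose change was smaller in the endothelial fraction, at 1.29 against 3.54 (difference -2.25 ± 0.40, adjusted p = 0.037).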

How the results depend on the processing

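Rises numbered 1705 and falls 1750 at an adjusted p under 0.05. At a threshold of 0.01 they were 752 and 510, and against a 2-fold limit 432 and 30. Falls were 1080 with no filter on low counts and 761 with clone entries, where more entries were tested. With each SEC library left out in turn, rises ranged from 899 to 1641 and falls from 659 to 1537. The replicate block gave 2076 rises and 2255 falls over all 12 libraries and 2218 and 2206 in the 6 SEC libraries alone. Of 377 named genes the block over all libraries ended 2 calls and made 10, and beyond the lists for which a count with the block is given above it moved no list by over 1.5 times except chaperone, heat shock, integrin, Hedgehog and cholangiocyte lists, each by 1 gene. DESeq2 gave 2316 rises and 1913 falls, limma-voom 1488 and 1760, and libraries 2 and 3 alone, a choice made after seeing the data, 2098 and 1471. No called change of a named gene changed direction under the alternatives run. Among omissions of a library, those of F-SEC.3, Q-SEC.3 and Q-SEC.2 ended the most calls of named genes, 64, 62 and 60, and the 2-fold limit and the 0.01 threshold ended 190 and 94. The causes were not tested.

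With 3 libraries a group and the depth here, 27% of 2-fold changes were recovered in a simulation with 200 changed genes, all above a minimum mean level. The absence of a call therefore does not show that a gene did not differ. A single library decided several counts, and the labels do not say which libraries share a mouse. Low-level genes near 3 counts have folds that rest on few reads. Bulk fractions hold other cells, whose share was not measured.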
